A study of Homo sapiens with 12 samples.

Results

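The 64 genes described here are the replication-dependent histone genes, chosen by symbol from a table of 56227 rows as every gene named H1-1 to H1-6, H2AC, H2BC, H3C or H4C followed by a number, together with H3-2. They comprise 6 linker histone H1 genes, 16 H2A genes, 15 H2B genes, 14 H3 genes and 13 H4 genes. RNA-seq was made from HT1080, an established human fibrosarcoma line that carries mutant NRAS, in 12 libraries of 4 groups with 3 libraries each. Cells received a control siRNA (siNC) or an siRNA against mutant NRAS (siQ61K), each with DMSO alone or with the synthetic DNA duplex poly(dA:dT), which stimulates cytosolic DNA sensing. The siNC DMSO group is the control, and the doses, times and number of cultures are not given in the labels. A single siRNA targeted NRAS, so effects of that siRNA and of loss of NRAS cannot be told apart.

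Replication-dependent histones package newly copied DNA. Their genes lie mainly in clusters on chromosomes 6 and 1, hold no introns in their usual form and are transcribed mostly in S phase. Their mRNAs normally end in a conserved stem-loop in place of a poly(A) tail, and the stem-loop binding protein SLBP binds it and is needed for processing, export and translation. Many of these genes can also give a longer mRNA with a poly(A) tail, above all in cells that are differentiating or leaving the cell cycle. Whether the RNA was selected by its tail is not given in the sources used here, so how well the usual form was captured is unknown.

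The stem-loop is shown first, because it sets these genes apart from other genes by sequence. It was searched on the sense strand of GENCODE 29 transcripts as GG, any pair of bases, CTTTT, any base, AG, any base and GCC. It was found in 25 of 63 members with a matched symbol, where a match in any transcript counted. In other genes only the longest transcript was searched, and 11 of 54067 held it (0.0203%), so the counts are not strictly alike. The 3 commonest forms are printed with the arms of the stem in capitals and the loop in lower case.
H2AC6, H2AC18, H2BC21, H3C10 and 10 other members: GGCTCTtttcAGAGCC
H4C11 and 3 other members: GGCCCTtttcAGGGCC
H2BC4, H2BC5 and H3C8: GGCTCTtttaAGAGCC
A further 3 members had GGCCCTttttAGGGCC and 1 member, H2AC11, had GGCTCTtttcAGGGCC. In 13 members the annotated transcript ran 500 or more bases past the stem-loop, by 1128 bases in H2AC6, 1729 in H2BC21 and 769 in H3C10. The models of H2BC12 (381 bases) and H1-2 (642 bases) hold no stem-loop, so a missing match describes the annotated model.

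Promoters are shown for the members with the largest or firmest values. Each window holds the 120 bases before the annotated start in RefSeq (GRCh38.p14), with ATTTGCAT (the octamer bound by OCT1), CCAAT and TATAAA in capitals on either strand, ATTGG being CCAAT on the other strand.
H2BC12 (chr6:27146859-27146978, minus strand): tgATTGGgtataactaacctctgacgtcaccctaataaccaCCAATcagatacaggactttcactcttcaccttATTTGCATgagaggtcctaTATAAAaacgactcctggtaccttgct
H2BC21 (chr1:149886683-149886802, minus strand): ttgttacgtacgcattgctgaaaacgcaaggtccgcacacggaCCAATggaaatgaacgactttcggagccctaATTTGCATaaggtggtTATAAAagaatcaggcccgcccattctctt
H2BC5 (chr6:26158001-26158120, plus strand): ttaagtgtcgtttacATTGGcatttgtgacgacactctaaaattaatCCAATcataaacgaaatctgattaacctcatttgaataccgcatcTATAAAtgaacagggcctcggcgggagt
H2AC18 (chr1:149842751-149842870, minus strand): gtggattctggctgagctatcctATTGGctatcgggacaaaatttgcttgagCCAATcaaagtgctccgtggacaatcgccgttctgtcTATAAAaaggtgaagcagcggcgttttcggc
H2AC6 (chr6:26124052-26124171, plus strand): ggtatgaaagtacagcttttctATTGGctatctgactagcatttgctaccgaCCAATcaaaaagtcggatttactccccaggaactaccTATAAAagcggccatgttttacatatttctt
H1-2 (chr6:26056471-26056590, minus strand): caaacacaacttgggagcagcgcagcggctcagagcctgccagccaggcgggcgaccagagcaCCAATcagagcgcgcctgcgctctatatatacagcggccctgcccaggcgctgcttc
H4C14 (chr1:149832537-149832656, plus strand): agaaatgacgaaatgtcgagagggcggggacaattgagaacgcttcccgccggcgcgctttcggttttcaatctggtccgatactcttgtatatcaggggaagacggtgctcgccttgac

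Over the full 300-base RefSeq windows, which also hold the first transcribed bases, the octamer was found in 24 of 58 members (41.4%) and in 2.19% of 27305 genes. It was found for 12 of 15 H2B and 11 of 15 H2A genes, for 1 of 11 H3 genes and for none of the 6 H1 or 11 H4 genes. Adjacent H2A and H2B genes transcribed away from each other start 194 to 248 bases apart. Their windows overlap, so the same octamer can count for both. Within the 120 bases before the start, the H2A genes with it were H2AC1, H2AC4, H2AC7 and H2AC17. The H3 match, for H3C4, lies in a window that is also the window of H2AC7. CCAAT was in 84.5% of members against 39.7% of all genes, with 2 of 11 in the H4 family, and TATAAA was in 70.7% against 13.99%. A match describes these letters in this window and is no evidence of binding.

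The labels and the library were checked once for the series. NRAS was lower in each siQ61K library than in each siNC library, with a log2 fold change of -1.61 in DMSO and -1.10 in poly(dA:dT). The mesenchymal markers VIM, FN1, CD44 and LGALS1 stood above 180 TPM in each library, THY1 was at most 0.126 TPM, and all epithelial, blood and endothelial markers were under 1 TPM. Of the neural markers TUBB3 stood at 153 to 337 TPM, GFAP at 0.415 to 3.20 TPM and SOX10 at 0. Replicate libraries correlated at 0.966 to 0.984 across genes, and the mean correlation with the other replicates was lowest in the 3 siQ61K poly(dA:dT) libraries (0.968 to 0.972, against 0.976 to 0.980 in the other 9). Values are TPM, a relative abundance per transcript length from which sequencing depth cannot be recovered. The labels do not say whether replicates were separate cultures. The p-values therefore cover only spread among these libraries, possibly technical. Fewer cells in S phase and less histone RNA per cell cannot be told apart in such bulk samples.

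Histone RNA was concentrated in a handful of genes. H2BC12, an H2B gene, had the highest mean at 351 TPM, followed by the linker histone gene H1-2 at 130.3 TPM, the H2A gene H2AC18 at 82.7 TPM, H2BC5 at 34.4 TPM and H2AC6 at 33.1 TPM. These 5 genes held between 76.4% and 87.2% of the summed histone TPM of a library, and H2BC12 alone between 32.1% and 51.6%. Another 8 members had means of at least 5 TPM, from H4C14 (16.7 TPM), H2BC21 (15.1 TPM) and H2BC11 (12.3 TPM) down to H2BC4 (5.45 TPM). No H3 gene was among the leading 5, and the highest, H3C10, had a mean of 8.99 TPM.

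**Figure D1:**
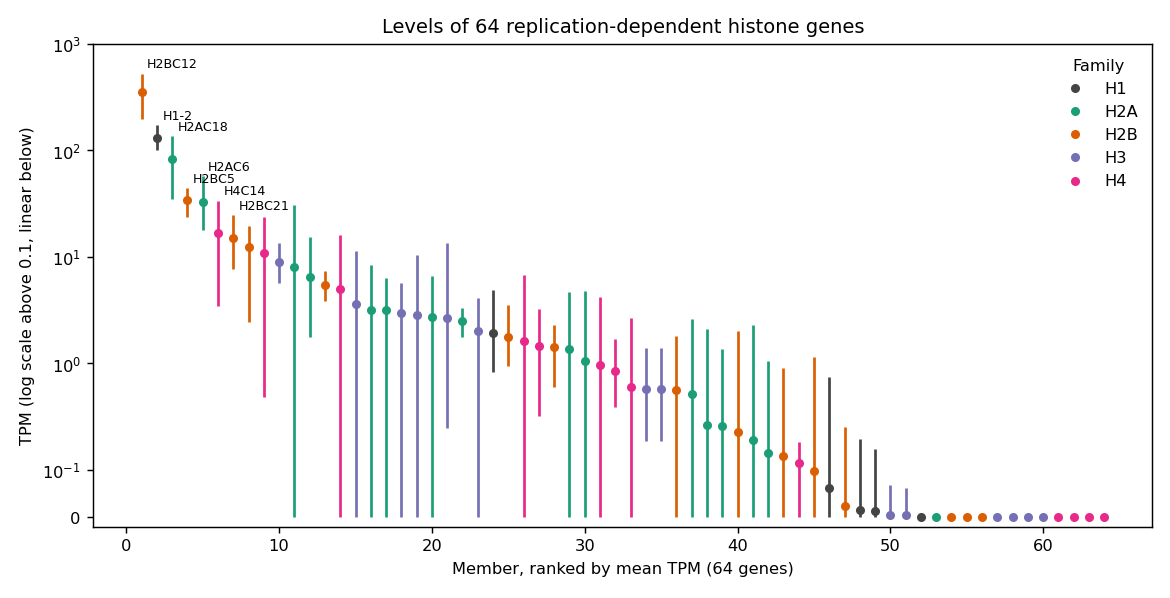
TPM of the 64 histone genes, ranked by mean over 12 libraries. Points are means, coloured by family, and vertical lines run from the lowest to the highest library. The vertical axis is logarithmic above 0.1 TPM and linear below. H2BC12, H1-2 and H2AC18 stand at the left with means of 351, 130.3 and 82.7 TPM, and 13 members at the right are listed at 0.

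Most members were scarcely represented. Of these genes, 13 were listed at 0 in all 12 libraries, namely H1-6, H2AC1, H2BC1, H2BC9, H2BC10, H3C7, H3C11, H3C12, H3C13, H4C2, H4C4, H4C7 and H4C13. A further 30 were above 0 in some libraries and 21 in all 12, and 34 members had a mean under 1 TPM. The 18 members that were above 0 somewhere but did not reach 1 TPM in 3 libraries peaked between 0.0615 TPM (H3C6) and 2.60 TPM (H2AC4). They are H1-1, H1-3, H1-5, H2AC4, H2AC7, H2AC16, H2AC17, H2AC21, H2BC3, H2BC6, H2BC14, H2BC17, H3C6, H3C8, H3C14, H3C15, H4C5 and H4C9. This left 33 members for testing, 2 H1, 10 H2A, 8 H2B, 6 H3 and 7 H4 genes, and no member passed through 1 group alone.

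Some members cannot be told apart by reads. Of the 31-base stretches in its annotated transcripts, H2AC18 shared 100% with H2AC19, H3C14 shared 100% with H3C15, and H4C14 shared 98.6% with H4C15. The authors' TPM split such reads by estimation, and the split moved between replicates. In siNC DMSO replicate 3, H4C14 stood at 18.9 and H4C15 at 0.489 TPM, and in replicate 1 at 3.49 and 12.1 TPM. The sum of both was steadier, at 15.6, 19.4 and 19.3 TPM in that group, so sums are given below beside the single genes. H2BC12 shared 86.3% of its stretches with other genes, chiefly 74.4% with 1 gene that the annotation gives no symbol. Further shares were 100% for H3C4 with another gene without a symbol, 100% for H4C12 with H4C11 and 82.2% for H4C11 with H4C12, 84.6% for H2AC14 with H2AC13, and 100% for H2AC15 with H2BC15. Values of these genes taken singly are uncertain. H3-2 had no matched transcript, so how far it shares such stretches with other genes is unknown.

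Adjacent H2A and H2B genes that are transcribed away from each other from a shared intergenic stretch had unlike levels in some pairs and like levels in others. H2BC4 (5.45 TPM) and H2AC6 (33.1 TPM) start 246 bases apart, H2BC21 (15.1 TPM) and H2AC20 (6.52 TPM) 236 bases apart, and H2BC11 (12.3 TPM) and H2AC11 (2.53 TPM) 248 bases apart. Either the H2A or the H2B gene of a pair was the higher. Among scarce pairs, H2AC15 (1.37 TPM) and H2BC15 (1.77 TPM) were close, and H2AC1 and H2BC1 were both listed at 0. H2AC15 shares 100% of its 31-base stretches with H2BC15, so the split of reads between these neighbours is uncertain.

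Summed over all 64 members, histone TPM was 592, 721 and 645 in the siNC DMSO libraries and 972, 855 and 1014 in the siQ61K DMSO libraries. The groups did not overlap, at 653 ± 64.9 against 947 ± 82.3 TPM (SD, n = 3). With poly(dA:dT) the sums were 803, 759 and 663 TPM in siNC cells and 904, 611 and 614 TPM in siQ61K cells, and these groups overlapped. The H2A and H4 families had sums that did not overlap between the siRNAs in either setting. For H2A they were 79.1 to 95.6 TPM against 184 to 223 TPM in DMSO and 99.1 to 126 TPM against 172 to 198 TPM in poly(dA:dT). For H4 they were 22.3 to 37.4 TPM against 45.8 to 54.1 TPM in DMSO and 26.5 to 33.1 TPM against 34.2 to 56.2 TPM in poly(dA:dT), where the nearest libraries were about 1 TPM apart. The H1 sums overlapped between siNC and siQ61K in DMSO, at 124 ± 1.39 and 130.1 ± 12.5 TPM (SD, n = 3). In all siQ61K poly(dA:dT) libraries H2B was the family that varied most, at 488, 271 and 279 TPM.

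**Figure D2:**
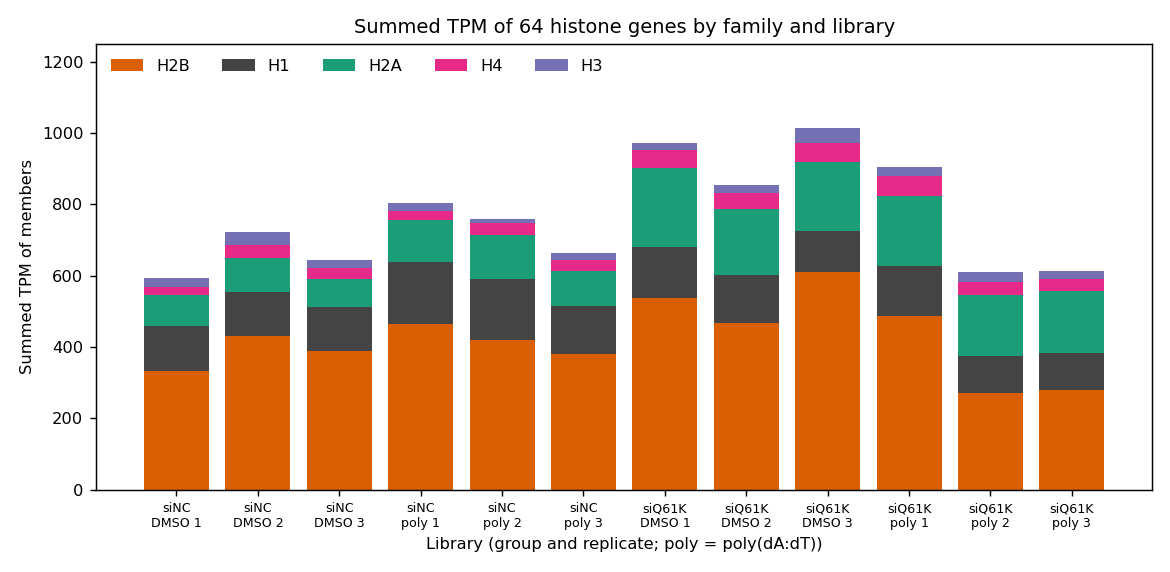
Summed TPM of the 64 histone genes in each of the 12 libraries, stacked by family. The 3 siQ61K DMSO libraries sum to 855 to 1014 TPM, above the 592 to 721 TPM of the 3 siNC DMSO libraries, and siQ61K poly(dA:dT) replicate 1 (904 TPM) stands above replicates 2 and 3 (611 and 614 TPM).

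The first comparison, siQ61K against siNC in DMSO, asks what the knockdown did to histone RNA without stimulation. Of 33 members tested, 8 rose, 1 fell and 24 were not called. The risen members were H2AC18, H2AC19, H2AC6 and H2AC8 in the H2A family, H2BC21 and H2BC5 in the H2B family, H3-2, and H4C14, and H3C3 fell. The member share called (27.3%) was near the 31.5% of all 14722 genes called, of which 16.6% were higher and 14.8% lower. The median log2 fold change was 0.37 over the tested members and 0.01 over all genes.

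Among H2A genes, H2AC18 stood at 34.7, 50.9 and 43.1 TPM in siNC cells and at 137, 128 and 113 TPM in siQ61K cells. The groups were far apart, with each siQ61K library more than 60 TPM above each siNC library. Its log2 fold change on the TPM + 1 scale was 1.54 (SE 0.18, adjusted p = 6.58e-05). Its near copy H2AC19 was listed at 2.11, 0 and 0 TPM in siNC cells and at 17.5, 5.80 and 18.1 TPM in siQ61K cells (log2 fold change 3.20, SE 1.10, adjusted p = 0.0412), so its fold change depends on the pseudocount. As a sum, the copies gave 36.8, 50.9 and 43.1 TPM against 154, 134 and 131 TPM, or 1.67 as a log2 fold change (SE 0.14, adjusted p = 8.07e-06). H2AC6 went from 23.9, 20.97 and 18.3 TPM to 38.1, 33.7 and 35.9 TPM (0.75, SE 0.12, adjusted p = 0.000643), again with no overlap. H2AC8, a gene of low level, went from 0.542, 1.87 and 1.39 TPM to 6.36, 5.27 and 5.32 TPM (1.60, SE 0.50, adjusted p = 0.0278).

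Among H2B genes, H2BC21 stood at 7.77, 12.6 and 10.03 TPM in siNC cells and at 20.9, 20.2 and 24.6 TPM in siQ61K cells. No libraries overlapped (1.06, SE 0.17, adjusted p = 0.000703). H2BC5 went from 24.2, 36.6 and 25.1 TPM to 42.3, 44.0 and 38.5 TPM (0.55, SE 0.16, adjusted p = 0.0219), where siNC replicate 2 came within 2 TPM of the lowest siQ61K library. H2BC12, the most abundant member, had 279.7, 354 and 324 TPM in siNC cells and 452, 381 and 524 TPM in siQ61K cells. These values did not overlap either, but the change missed the threshold (0.50, SE 0.22, adjusted p = 0.107). H2BC11 had the opposite sign, at 15.7, 19.7 and 18.2 TPM against 8.47, 11.8 and 8.37 TPM, and was not called (-0.85, SE 0.38, adjusted p = 0.112).

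The core histone genes H3 and H4 gave 3 calls. H3-2 stood at 0.753, 0.387 and 1.82 TPM in siNC cells and at 3.997, 4.87 and 13.7 TPM in siQ61K cells, where replicate 3 was well above the other libraries (1.99, SE 0.45, adjusted p = 0.005). H3C3 was the one member that fell, from 6.32, 11.5 and 4.56 TPM to 0.803, 3.37 and 1.73 TPM (-1.52, SE 0.52, adjusted p = 0.0414). H3C10, the most abundant H3 gene, stayed at 7.27 to 9.86 TPM against 8.05 to 9.80 TPM and was not called (0.07, SE 0.20, adjusted p = 0.814). For H4, the sum of H4C14 and H4C15 went from 15.6, 19.4 and 19.3 TPM to 42.9, 38.5 and 45.9 TPM, with no overlap (1.19, SE 0.13, adjusted p = 6.43e-05). Taken alone, H4C14 was called (1.55, adjusted p = 0.0156) and H4C15 was not (1.25, adjusted p = 0.136). Linker histone H1-2 had 123, 120.0 and 122 TPM against 139.9, 132 and 114 TPM, which overlapped (0.08, SE 0.14, adjusted p = 0.721).

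The calls differed in how far they rested on single libraries. Those of H2AC18, H2AC6, H2BC21 and H3-2 held in all 12 fits that left out 1 library. The call of H4C14 was lost without siQ61K DMSO replicate 1 (adjusted p = 0.0519), those of H2BC5 and H2AC8 in 4 of these fits each (highest adjusted p of 0.0979 and 0.108, both without siNC DMSO replicate 1), and those of H2AC19 and H3C3 in 5 each (0.115 and 0.153, both without siNC DMSO replicate 2). Without siQ61K DMSO replicate 1, 4 members rose in place of 8, and 1758 of all 14722 genes rose in place of 2450.

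**Figure D3:**
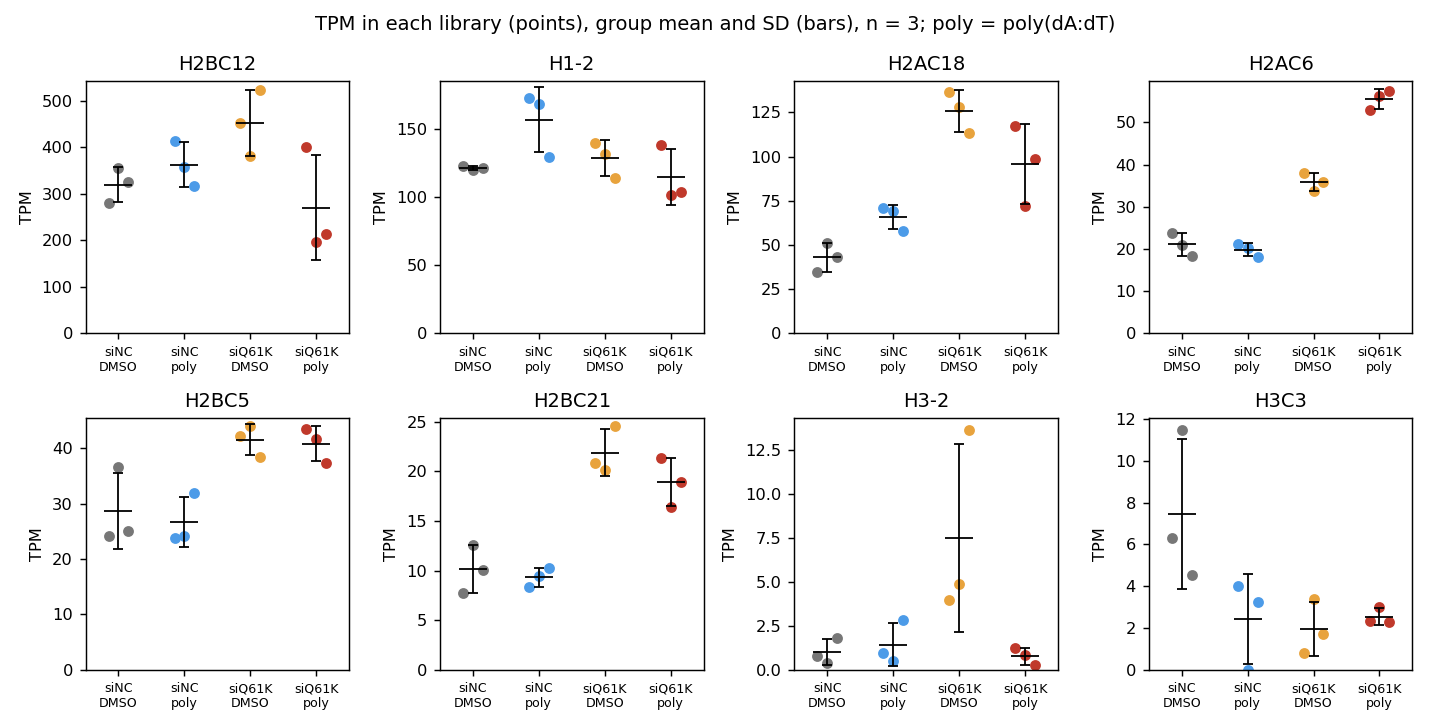
TPM of 8 histone genes in the 12 libraries. Points are libraries, horizontal bars are group means and error bars are SD (n = 3 per group), and each vertical axis starts at 0. H2AC18, H2AC6 and H2BC21 are higher in each siQ61K library than in each siNC library of the same treatment, while H2BC12 is spread from 196 to 400.1 TPM in the siQ61K poly(dA:dT) group.

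The second comparison, siQ61K against siNC in poly(dA:dT), is the knockdown in stimulated cells. It gave 5 risen members (H2AC6, H2BC21, H2BC5, H4C15 and H3C10), 1 that fell (H1-2) and 27 not called. Of all genes 21.4% were called, 8.71% higher and 12.6% lower, against 18.2% of the members. The median log2 fold change was 0.21 over the tested members and -0.07 over all genes. It shares no library with the DMSO comparison.

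H2AC6 had the firmest change of any member, from 21.1, 20.2 and 18.03 TPM in siNC cells to 52.9, 56.3 and 57.4 TPM in siQ61K cells (1.45, SE 0.12, adjusted p = 4.74e-06). Every siQ61K library was above 52 TPM and every siNC library under 22 TPM. H2BC21 went from 8.31, 9.41 and 10.2 TPM to 21.4, 16.4 and 18.95 TPM (0.95, SE 0.17, adjusted p = 0.00201). H2BC5 went from 23.9, 24.2 and 31.9 TPM to 43.6, 41.6 and 37.3 TPM (0.61, SE 0.16, adjusted p = 0.0181). These 3 genes were called higher by the knockdown both in DMSO and in poly(dA:dT).

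H3C10 had 8.24, 8.02 and 5.74 TPM in siNC cells and 8.73, 13.1 and 13.6 TPM in siQ61K cells (0.61, SE 0.20, adjusted p = 0.0437). Its lowest siQ61K library was close to the highest siNC library. The sum of H4C14 and H4C15 went from 20.6, 18.4 and 17.8 TPM to 34.1, 26.8 and 32.0 TPM, with no overlap (0.68, SE 0.13, adjusted p = 0.00343). Taken singly the copies moved apart, with H4C15 called higher (1.97, adjusted p = 0.0352) and H4C14 at -0.39 (adjusted p = 0.558). The sum of H2AC18 and H2AC19 was 70.6, 81.9 and 62.4 TPM against 123, 103 and 98.7 TPM and passed the threshold (0.59, SE 0.14, adjusted p = 0.0104), whereas H2AC18 alone did not (0.51, SE 0.18, adjusted p = 0.0542).

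H1-2 was the one member that fell, from 173, 168 and 129 TPM to 138, 101 and 104 TPM. The groups overlapped, since siQ61K replicate 1 was above siNC replicate 3 (-0.46, SE 0.14, adjusted p = 0.0359). H2BC12 had 412, 358 and 317 TPM against 400.1, 196 and 213 TPM and was not called (-0.49, SE 0.22, adjusted p = 0.134), a sign opposite to that in DMSO. H2BC11 (7.74 ± 5.57 against 14.2 ± 3.92 TPM, SD, n = 3, limma adjusted p = 0.0809) and H2AC20 (-1.16, adjusted p = 0.0825) were lower in siQ61K on average and not called. The calls of H2AC6 and H2BC21 held with any 1 library left out. The others were lost in 3 (H2BC5), 5 (H4C15 and H1-2) and 9 (H3C10) of the 12 fits, with highest adjusted p of 0.0704 for H2BC5 without siNC poly(dA:dT) replicate 2, 0.135 for H4C15 without replicate 1 of the same group, 0.13 for H1-2 without replicate 2 of siQ61K poly(dA:dT) and 0.156 for H3C10 without siNC poly(dA:dT) replicate 3. In the fit that dropped replicate 1 of siQ61K poly(dA:dT), 4 members fell in place of 1, and 2410 of all genes fell in place of 1862. The count of risen members was 2 in place of 5 without replicate 1 of siNC poly(dA:dT), and 3 without its replicate 2, its replicate 3 or replicate 3 of siQ61K poly(dA:dT). Of all genes, 903 to 1032 rose in those fits, in place of 1282.

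**Figure D4:**
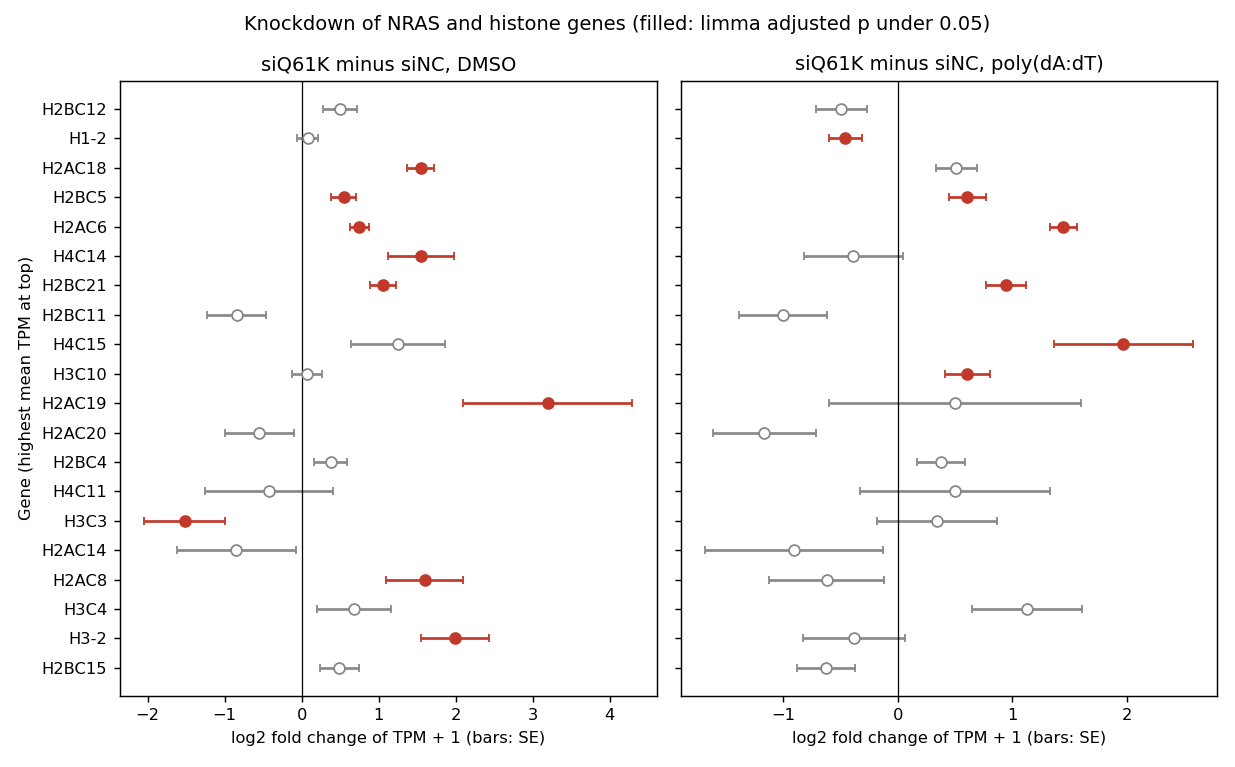
Log2 fold changes (TPM + 1) of the 20 histone genes described singly, for siQ61K minus siNC in DMSO (left) and in poly(dA:dT) (right). Points are model estimates, bars are 1 SE and filled points have a limma adjusted p under 0.05. H2AC6, H2BC21 and H2BC5 are filled on both sides, while H2BC12 is at 0.50 on the left and -0.49 on the right and open on both.

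The third comparison, poly(dA:dT) against DMSO under siNC, asks how stimulation alone moved these genes. No member was called by limma, and 4 of 33 had an unadjusted p under 0.05. Of all genes 0.122% were called, so few genes of any kind passed. Among the 3 members with the highest means, H2BC12 was at 0.18 (adjusted p = 0.746). The others were H2AC18, at 34.7, 50.9 and 43.1 TPM in DMSO and 70.6, 68.9 and 58.0 TPM in poly(dA:dT) (0.62, SE 0.18, adjusted p = 0.288), and H1-2, at 123, 120.0 and 122 TPM against 173, 168 and 129 TPM (0.35, SE 0.14, adjusted p = 0.404). The groups of H2AC18 and of H1-2 did not overlap.

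Under siQ61K, poly(dA:dT) against DMSO gave 4 calls, with H2AC6 higher and H3-2, H2BC12 and H4C14 lower. Of all genes 25.2% were called, 6.92% higher and 18.3% lower, against 12.1% of the members. H2AC6 rose from 38.1, 33.7 and 35.9 TPM to 52.9, 56.3 and 57.4 TPM, with no overlap (0.62, SE 0.12, adjusted p = 0.00587). H2BC12 fell from 452, 381 and 524 TPM to 400.1, 196 and 213 TPM, where replicate 1 with poly(dA:dT) was inside the DMSO range (-0.81, SE 0.22, adjusted p = 0.0199). H3-2 fell from 3.997, 4.87 and 13.7 TPM to 1.24, 0.816 and 0.249 TPM (-2.13, SE 0.45, adjusted p = 0.00684). H4C14 fell (-1.50, SE 0.43, adjusted p = 0.0238), and its sum with H4C15 went from 42.9, 38.5 and 45.9 TPM to 34.1, 26.8 and 32.0 TPM (-0.44, SE 0.13, adjusted p = 0.03).

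These 4 calls depended to unlike degrees on the processing and the libraries. The calls of H2AC6 and H3-2 held in all 12 fits that left out 1 library. Those of H2BC12 and H4C14 were lost without siQ61K DMSO replicates 1 or 3 or siQ61K poly(dA:dT) replicates 2 or 3 (adjusted p of 0.0539 to 0.0914 for H2BC12 and 0.069 to 0.0897 for H4C14). Dropping replicate 1 of siQ61K poly(dA:dT) instead gave 2 members higher and 6 lower. Of all genes, 1352 were then higher and 3270 lower, in place of 1019 and 2693. With replicate 3 of siQ61K DMSO and replicate 2 of siQ61K poly(dA:dT) both left out, none of the 4 was called, and adjusted p was 0.0752 for H2AC6, 0.221 for H2BC12, 0.0807 for H3-2 and 0.183 for H4C14. That fit called 0.978% of all genes in place of 25.2%. With GC content and transcript length corrected for in every library, H2AC6 kept its call (0.38, adjusted p = 0.034) and H2BC12 was at -0.34 (adjusted p = 0.291), while 8.69% of all genes were called.

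The interaction subtracts the siNC response to poly(dA:dT) from the siQ61K response and tests whether the siRNA changed the response. It was positive for H2AC6 (0.70, SE 0.17, adjusted p = 0.0188) and negative for H2AC18 (-1.03, SE 0.25, adjusted p = 0.0182), H3-2 (-2.37, SE 0.63, adjusted p = 0.0243), H4C14 (-1.94, SE 0.61, adjusted p = 0.0443), H2BC12 (-0.99, SE 0.31, adjusted p = 0.0459), H2AC8 (-2.21, SE 0.71, adjusted p = 0.0465) and H2BC15 (-1.11, SE 0.36, adjusted p = 0.0484). Of all genes 18.1% were called, 6% higher and 12.1% lower, against 21.2% of the members. The sum of H2AC18 and H2AC19 gave -1.08 (SE 0.20, adjusted p = 0.00883), and that of H4C14 and H4C15 -0.51 (SE 0.19, adjusted p = 0.0802). After the GC and length correction only H2BC15 was called (-1.43, adjusted p = 0.0429), with 2.06% of all genes. H4C14 (-2.03, adjusted p = 0.113) and H2AC8 (-1.87, adjusted p = 0.167) lost their calls with folds of like size, H2AC6 (0.32, adjusted p = 0.203), H2AC18 (-0.45, adjusted p = 0.264) and H2BC12 (-0.43, adjusted p = 0.418) with smaller ones, and H3-2 had no corrected value. No member was called, and 3.36% of all genes were, with replicate 3 of siQ61K DMSO and replicate 2 of siQ61K poly(dA:dT) left out, and each of the 7 calls was lost without at least 1 single library, among them siNC DMSO replicate 1, without which none held. H2BC15, with a mean of 1.77 TPM, lost its main call in all 12 fits that left out 1 library. Leaving out any 1 library other than replicate 1 of siQ61K poly(dA:dT) brought the 6 negative calls to 3 or fewer. Of all genes, 672 to 1938 were called lower in those fits, in place of 1779.

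GC content moved with these comparisons across the genome, and histone genes are GC-rich and short. The median GC content of the longest transcript was 58.3% for the 32 tested members with a value and 48.2% for all tested genes, and the median length was 529 against 3232 bases. Across genes, which are not independent replicates, the log2 fold change had a Spearman correlation with GC content of 0.50 for the knockdown in DMSO, -0.24 for the knockdown in poly(dA:dT), 0.50 for poly(dA:dT) under siNC, -0.57 for poly(dA:dT) under siQ61K and -0.65 for the interaction. After the correction 7 of 32 members rose and 1 fell in DMSO, and 6 rose and 1 fell in poly(dA:dT), against 27.5% and 27% of all genes called. In DMSO 6 of the 8 calls with a corrected value were kept, namely H2AC18 (1.20, adjusted p = 0.000178), H2AC6, H2BC21, H2BC5, H3C3 and H4C14. The H2A genes H2AC19 (2.85 after the correction against 3.20 before it, adjusted p = 0.0928) and H2AC8 (1.42 against 1.60, adjusted p = 0.0503) missed the threshold with folds close to their earlier ones, and H3-2 had no matched transcript. In poly(dA:dT) 5 of 6 were kept, and H1-2 was at -0.28 (adjusted p = 0.0606). The correction also added calls. In DMSO H2BC15 (0.78, adjusted p = 0.021) and H2BC18 (0.65, adjusted p = 0.037) were newly called higher. In poly(dA:dT) H2AC18 was newly called higher (0.75, adjusted p = 0.00374) and H2BC15 lower (-0.65, adjusted p = 0.0473). H2BC15 was corrected by its longest model (4137 bases, 39.5% GC), while its shorter models have 52.2 to 58.8% GC. How far its corrected values rest on that choice was not tested.

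The remaining members described singly were not called in the main fit of the knockdown comparisons. H2AC20 ranged from 1.76 to 15.4 TPM, H2BC4 from 3.83 to 7.37 TPM, H4C11 from 0 to 16.1 TPM, H2AC14 from 0 to 8.41 TPM, H3C4 from 0 to 10.5 TPM and H2BC15 from 0.952 to 3.51 TPM over the 12 libraries. The wide ranges of H4C11 and H2AC14 lie within groups, as in the siQ61K poly(dA:dT) libraries of H4C11 at 16.1, 8.48 and 0 TPM. The other 13 tested members had means of 0.558 TPM (H2BC13) to 2.96 TPM (H3C2) and no call in the main fit of any of the 5 comparisons.

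Genes of DNA synthesis, whose products copy the DNA that these histones package, gave calls in 1 direction, lower, under the knockdown. In DMSO 16 of 32 fell, none rose and 16 were not called, with a median log2 fold change of -0.39, against 14.8% of all genes lower and 16.6% higher. The ribonucleotide reductase subunits RRM1 (-0.90, adjusted p = 0.000738) and RRM2 (-0.81, adjusted p = 0.000988) and the clamp loader subunit RFC4 (-0.82, adjusted p = 0.00317) were among them. RRM2 went from 142 ± 7.26 to 80.3 ± 8.51 TPM (SD, n = 3). In poly(dA:dT) 17 of 32 fell and none rose (median -0.40), against 12.6% and 8.71% of all genes, with the licensing factor CDT1 at -1.07, the helicase subunit MCM5 at -1.05 and thymidine kinase TK1 at -1.05. Over the histone members the medians were 0.37 and 0.21, and the difference between the lists was not tested.

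Histone variants, whose genes are not tied to S phase in the way of the replication-dependent genes, gave more lower than higher calls. In DMSO 2 of 11 rose and 4 fell, where 31.5% of all genes were called, with H2AJ at 0.97, the macroH2A gene MACROH2A2 at 0.79 (with GC and length corrected 0.64, adjusted p = 0.0547) and the centromeric H3 variant CENPA at -0.96. In poly(dA:dT) 7 of 11 fell and none rose, where 21.4% of all genes were called, with CENPA at -1.47 and H1-10 at -1.30. CENPA went from 36.8 ± 1.27 to 18.5 ± 1.13 TPM in DMSO and from 40.1 ± 3.35 to 13.98 ± 2.81 TPM in poly(dA:dT) (SD, n = 3), with no overlap in either.

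**Figure D5:**
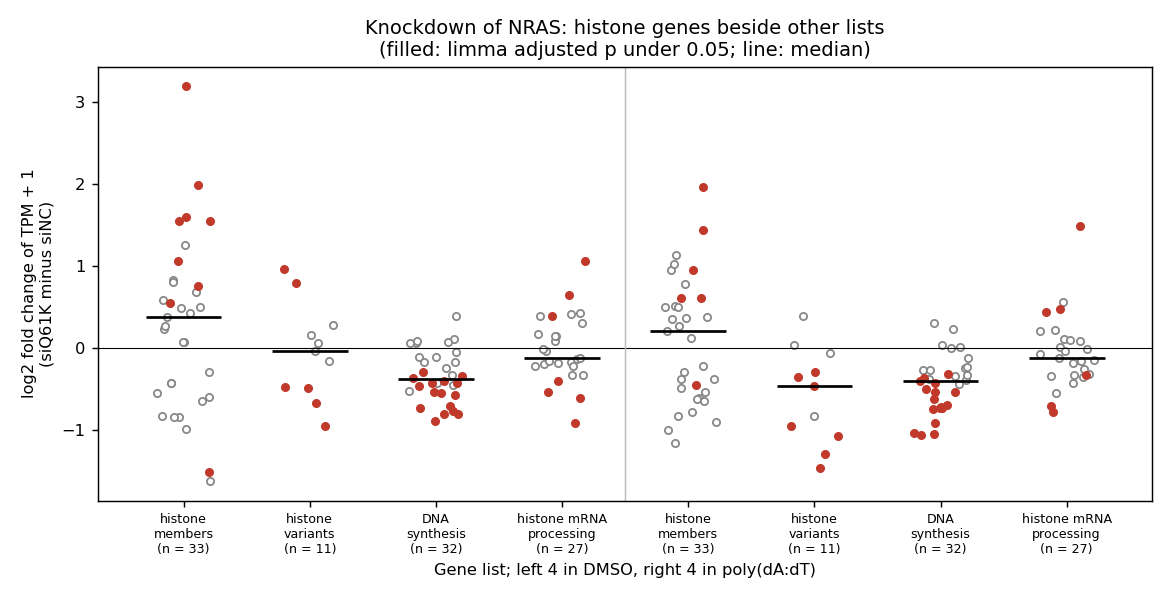
Log2 fold changes (TPM + 1) for siQ61K minus siNC of the tested genes of 4 lists, in DMSO (left 4 columns) and in poly(dA:dT) (right 4 columns). Points are genes, filled where the limma adjusted p is under 0.05, and lines are medians. The histone members have medians of 0.37 and 0.21, and DNA synthesis genes -0.39 and -0.40.

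Of 27 genes that transcribe, process or degrade histone mRNA, 3 rose and 4 fell in DMSO, and 3 rose and 3 fell in poly(dA:dT), shares near the 31.5% and 21.4% of all genes called. CCNE1, cyclin E1, whose kinase activates histone transcription through NPAT, rose in both, from 4.25, 6.74 and 4.54 TPM to 11.4, 10.7 and 13.2 TPM in DMSO (1.06, adjusted p = 0.000839) and from 3.51, 2.77 and 3.84 TPM to 11.4, 11.03 and 11.2 TPM in poly(dA:dT) (1.49, adjusted p = 8.58e-05). CDK2, the kinase that cyclin E1 activates, was not called in DMSO (-0.33, adjusted p = 0.257) and fell in poly(dA:dT) (-0.71, adjusted p = 0.0289). The transcription factor E2F1 was likewise not called in DMSO (-0.12, adjusted p = 0.609) and fell in poly(dA:dT) (-0.79, adjusted p = 0.00508). With GC and length corrected, E2F1 was called lower in both, at -0.58 in DMSO (adjusted p = 0.00158) and -0.54 in poly(dA:dT) (adjusted p = 0.00246). NPAT itself was at 5.29 to 11.7 TPM and not called (-0.22, adjusted p = 0.53 in DMSO and 0.02, adjusted p = 0.974 in poly(dA:dT)). TUT7, a uridylyl transferase that marks histone mRNA for decay, fell in DMSO (-0.92, adjusted p = 0.00196), and SYMPK, a scaffold of the cleavage complex, rose (0.65, adjusted p = 0.00135), and with GC and length corrected it was at 0.30 and not called (adjusted p = 0.121). SLBP stood at 85.5, 86.2 and 77.6 TPM in siNC cells and 74.5, 77.2 and 66.5 TPM in siQ61K cells in DMSO and was not called (-0.19, adjusted p = 0.203). In poly(dA:dT) SLBP rose from 71.4, 69.1 and 73.6 TPM to 86.0, 95.3 and 110.1 TPM (0.43, SE 0.11, adjusted p = 0.0132).

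Of 20 histone chaperones and related factors, 4 rose and 3 fell in DMSO and 1 rose and 4 fell in poly(dA:dT). These shares were near the 31.5% and 21.4% of all genes called. HAT1, which acetylates new histone H4, fell in DMSO (-0.69, adjusted p = 0.00193), while HIRA, a chaperone of the H3.3 variant, rose (0.64, adjusted p = 0.00919). In poly(dA:dT) the FACT subunit SSRP1 (-0.66, adjusted p = 0.00274) and ASF1B (-0.58, adjusted p = 0.00419), which hands over H3 and H4, fell. Under siQ61K 7 of these 20 genes were lower with poly(dA:dT) and 3 higher, where 25.2% of all genes were called. After the GC and length correction none was called lower and 1 was called higher, where 8.69% of all genes were called. CABIN1, for one, went from -0.86 to -0.20 (adjusted p = 0.308).

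Other RNAs that normally lack a poly(A) tail were measured beside the histone sums. Of 18 such RNAs with a row, 5 were tested, and their summed TPM was 92.0 to 261 in siNC DMSO, 74.0 to 178 in siNC poly(dA:dT), 71.1 to 105 in siQ61K DMSO and 70.7 to 99.1 in siQ61K poly(dA:dT). In DMSO, where histone sums were higher under siQ61K, these sums overlapped between the siRNAs. Of the 5, SCARNA13 fell in DMSO (-2.23, adjusted p = 0.0246), none rose, and none was called in poly(dA:dT). The part of RNA capture in the histone values was not tested.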

How the data were processed

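The authors deposited 1 table of TPM per gene symbol. Salmon 0.8.0 and hg19 are named in the submitters' processing notes. Libraries came from total RNA with a NEBNext Ultra kit and were read on a NovaSeq, per the labels' protocols. The annotation used is not given in the sources used here. Short column names were matched to sample titles by their siRNA code, agent code and replicate number, an inference from names. Rows sharing a symbol (984 rows, 58 symbols, no member) were left out.

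The 14722 genes reaching 1 TPM in 3 or more of 12 libraries were analysed as log2(TPM + 1), which understates changes of low genes. The 4 groups were fitted together in limma 3.58.1 (R 4.3.3), using a variance trend, and p-values were adjusted by Benjamini-Hochberg over all genes, with calls at 0.05. An exact permutation test of 3 libraries against 3 cannot go below p = 0.1. The code was tested on simulated data. Alternatives were other pseudocounts, filters, scalings and variance models, a replicate block, leaving out libraries, a lowess correction (span 0.3) for GC content and length, and, added after the data were seen, leaving out 2 libraries together and summing near-identical genes.

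Members and lists were chosen with earlier results of these data known. Members called in any comparison or with a group mean of at least 5 TPM are described singly. From the companion lists, up to 3 called genes with the largest changes per comparison could be named, and 1 gene that this rule named is not reported here. Transcript models come from GENCODE 29 and promoters from RefSeq (GRCh38.p14).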

Additional observations from a re-analysis of the deposited data

Results flagged for a closer look

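The interaction was called for 7 histone genes, meaning that the poly(dA:dT) response under siQ61K differed from that under siNC by limma's test of the difference. It was 0.70 for H2AC6, -1.03 for H2AC18, -2.21 for H2AC8, -0.99 for H2BC12, -1.11 for H2BC15, -2.37 for H3-2 and -1.94 for H4C14 on the log2 scale. H2AC6 was the one of the 7 with a positive difference. The member share called was 21.2%, against 18.1% of all genes. None of the 7 calls held when siNC DMSO replicate 1 was left out.

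The same test was passed by 15 of the genes named from the companion lists, where 18.1% of all genes were called. Companion genes were named mainly for large called changes, so this count is no share of the lists. Among histone variants the interaction was -1.58 for H1-10, -1.8 for H2AJ and -1.11 for H2AX. Among chaperones it was -0.56 for ASF1B, -1.08 for CABIN1, -1.13 for CHAF1A, 0.74 for HAT1 and 0.76 for NAP1L1. Among DNA synthesis genes it was -1.0 for MCM5, -0.61 for POLD1 and -0.61 for TK1. Among genes of histone mRNA metabolism it was 0.62 for SLBP, -0.74 for SRRT, -0.55 for SYMPK and -0.84 for UPF1. SLBP was the one of these 15 that kept its call once GC content and length were corrected for (0.72, adjusted p = 0.037). A lost call did not always come with a smaller value, since H2AJ was at -2.04 after the correction (adjusted p = 0.0557), whereas H1-10 was at -0.78 (adjusted p = 0.0566) and ASF1B at -0.06 (adjusted p = 0.863).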

How the results depend on the processing

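Counts of histone members called moved with several choices, and the cause was not tested except where fewer genes or libraries entered. For the knockdown in DMSO (8 higher, 1 lower), the count higher was 4 with no filter on low values, and the count lower was 0 with a pseudocount of 0.1, no filter, a filter at a mean of 5 TPM, no variance trend or the replicate block, 2 with a pseudocount of 5, 3 with a fit to only the groups compared and 4 with sample weights. For the knockdown in poly(dA:dT) (5 higher, 1 lower), it was 3 higher with no filter, and lower 0 with no filter, median-of-ratios scaling, quantile normalization, no variance trend or only the groups compared, 2 with the replicate block and 5 with sample weights. For poly(dA:dT) in siNC sample weights called 1 lower. For poly(dA:dT) in siQ61K (1 higher, 3 lower), sample weights gave 3 higher and 6 lower, only the groups compared 2 higher, and no filter and the GC and length correction 1 lower each. For the interaction (1 higher, 6 lower), sample weights gave 4 higher, the GC and length correction 0 higher and 1 lower, no filter 0 lower, and a filter at a mean of 5 TPM, median-of-ratios scaling, no variance trend or the replicate block 3 lower each. Counts over all genes moved with these choices too. For the knockdown in DMSO, sample weights called 3562 higher and 4026 lower, in place of 2450 and 2182, and 12 members higher. For poly(dA:dT) in siQ61K they called 1845 higher and 3648 lower, in place of 1019 and 2693. With no filter, 51 members were tested among 29639 genes, in place of 33 among 14722.

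Leaving out 1 library, or 2 together (replicate 3 of siQ61K DMSO and replicate 2 of siQ61K poly(dA:dT), chosen after seeing the data), gave 4 to 9 higher and 0 to 2 lower for the knockdown in DMSO, 2 to 5 higher and 0 to 4 lower for the knockdown in poly(dA:dT), 0 to 2 higher and 0 to 6 lower for poly(dA:dT) in siQ61K, and 0 to 2 higher and 0 to 6 lower for the interaction. The fit without the 2 together is the one that gave 0 for poly(dA:dT) in siQ61K. Counts over all genes moved in these fits too. They were 1591 to 2675 higher for the knockdown in DMSO and 903 to 1360 higher for the knockdown in poly(dA:dT). Same-numbered libraries did not clearly deviate together across genes (correlations of -0.26 to 0.233). The labels do not say whether such libraries shared a culture or batch, and this check cannot exclude it. All 26 member calls kept their sign under median-of-ratios and quantile scaling, and the 23 with a corrected value kept it after the correction. Summing near-identical genes turned H4C14 in the knockdown in poly(dA:dT) to 0.68. The correction turned H2AX in the knockdown in DMSO to -0.35, TK1 to 0.025 for poly(dA:dT) in siQ61K and 0.029 for the interaction, and POLD1 and SYMPK in the interaction to 0.22 and 0.051. Median-of-ratios scaling moved the median of all genes for poly(dA:dT) in siQ61K from -0.15 to 0.00 and the calls from 1019 higher and 2693 lower to 1899 and 1654. For the interaction they went from 883 and 1779 to 1355 and 1477, and quantile scaling moved those of the knockdown in poly(dA:dT) from 1282 and 1862 to 1689 and 1612. Depth is unknown, so a member listed at 0 may be present below detection.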

Other observations

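Calls were also counted by chromosome. This split was made after the values were seen, and the difference between chromosomes was not tested. Of all genes 16.6% were called higher in DMSO and 8.71% in poly(dA:dT). In DMSO 4 of 7 tested members on chromosome 1 rose under siQ61K (H2AC18, H2AC19, H2BC21 and H4C14), with a median log2 fold change of 1.25. On chromosome 6, 3 of 25 rose and 1 fell, with a median of 0.07. H3-2, which also rose in DMSO, had no chromosome assigned and is in neither count. In poly(dA:dT) 2 of 7 and 3 of 25 rose. H2AC18 with H2AC19, and H4C14 with H4C15, share their reads, so the members on chromosome 1 are fewer in effect than 7.

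Members whose annotated transcripts run 500 or more bases past the stem-loop, also split off after the values were seen, held 8 of the 33 tested. Against the same shares of all genes, 3 of these rose in DMSO (H2AC6, H2BC21 and H4C14) and 4 in poly(dA:dT) (H2AC6, H2BC21, H4C15 and H3C10), with none lower in either. Of the other 25, 5 rose and 1 fell in DMSO, and 1 rose and 1 fell in poly(dA:dT). The corrected fit called 4 of the 8 higher in both settings, with H2BC18 added in DMSO. Among the other members it called H2AC18, H2BC5 and H2BC15 higher in DMSO, and H2AC18 and H2BC5 in poly(dA:dT). Of all 14616 genes in that fit, 1914 were higher in DMSO and 2003 in poly(dA:dT). H4C14 and H4C15 share their reads, so the 8 are fewer in effect. Whether the RNA measured was the longer form cannot be read from values per gene.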
